A study of Mus musculus with 35 samples.

Results

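The RUNX and core binding factor genes Runx1, Runx2, Runx3, Cbfb and Runx1t1 were examined, 5 of 21887 mouse protein-coding genes with a position on mm10. They were chosen by name, with earlier results of these data known. The study mapped 3 histone marks by ChIP-seq in bone marrow cells of C57BL/6 mice with and without leukaemia mutations. The groups were lineage-negative (Lin-) haematopoietic stem and progenitor cells (HSPC) of DM, Npm1c and Flt3-ITD mice, and neutrophils of WT mice. WT HSPC served as the control for all of them. The labels leave DM unexplained, and it is read as the double mutant that carries both mutations. The labels give no Cre line, age, sex or disease stage, and no sign of pooling of animals. HSPC were the cells left after depletion of lineage-marked cells and neutrophils came from an isolation kit, so both are mixed, enriched populations. There were 2 libraries of every mark in each group, biological replicates by the series design, for 30 peak lists in all. The 5 input samples were not used here.

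RUNX proteins are transcription factors that bind DNA through a runt domain. CBFβ, the product of Cbfb, does not bind DNA itself and joins each RUNX protein to strengthen that contact. Runx1 is needed for blood stem cells to arise and for platelet-forming and lymphoid development, Runx2 directs bone formation, and Runx3 acts in cytotoxic T cells and sensory neurons. Runx1t1 encodes ETO, a co-repressor known from its fusion to RUNX1 in acute myeloid leukaemia. Each Runx gene has a distal promoter, P1, and a proximal promoter, P2, within the gene. H3K4me3 marks promoters, H3K4me1 marks enhancers and promoter flanks, and H3K27ac marks active ones of both kinds.

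The promoters are shown first, because the marks were read against them. Each line is a RefSeq promoter window of GRCm38.p6, the assembly of mm10, from 250 bases before to 50 bases after a start, on the strand of the gene. Capitals mark an 18-base run that the distal promoters of all 3 Runx genes share.
Runx1 P1, chr16:92826025-92826324, minus strand: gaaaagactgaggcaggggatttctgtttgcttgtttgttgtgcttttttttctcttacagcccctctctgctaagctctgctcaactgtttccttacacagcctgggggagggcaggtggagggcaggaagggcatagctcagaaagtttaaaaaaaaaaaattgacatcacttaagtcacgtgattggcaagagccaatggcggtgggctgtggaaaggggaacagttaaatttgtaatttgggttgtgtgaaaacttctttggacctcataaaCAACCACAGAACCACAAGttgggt
Runx2 P1, chr17:44814578-44814877, minus strand: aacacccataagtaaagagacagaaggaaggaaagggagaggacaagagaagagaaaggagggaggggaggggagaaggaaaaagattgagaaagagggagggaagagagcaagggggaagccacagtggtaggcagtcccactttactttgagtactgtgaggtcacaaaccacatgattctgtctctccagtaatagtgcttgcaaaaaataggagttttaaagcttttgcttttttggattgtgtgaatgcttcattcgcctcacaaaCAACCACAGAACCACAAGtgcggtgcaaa
Runx3 P1, chr4:135120395-135120694, plus strand: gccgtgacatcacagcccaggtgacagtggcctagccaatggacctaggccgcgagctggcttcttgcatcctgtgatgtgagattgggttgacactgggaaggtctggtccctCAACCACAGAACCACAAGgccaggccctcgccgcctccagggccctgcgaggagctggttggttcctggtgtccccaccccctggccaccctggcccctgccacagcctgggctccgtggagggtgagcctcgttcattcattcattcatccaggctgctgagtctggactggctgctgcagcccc
Runx1 P2, chr16:92697280-92697579, minus strand: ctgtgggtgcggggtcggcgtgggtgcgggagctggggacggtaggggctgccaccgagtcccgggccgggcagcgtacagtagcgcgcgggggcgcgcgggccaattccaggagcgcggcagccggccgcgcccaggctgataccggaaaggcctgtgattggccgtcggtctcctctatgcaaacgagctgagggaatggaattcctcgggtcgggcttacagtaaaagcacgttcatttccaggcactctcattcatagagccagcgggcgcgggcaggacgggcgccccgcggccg
Runx3 P2, chr4:135152295-135152594, plus strand: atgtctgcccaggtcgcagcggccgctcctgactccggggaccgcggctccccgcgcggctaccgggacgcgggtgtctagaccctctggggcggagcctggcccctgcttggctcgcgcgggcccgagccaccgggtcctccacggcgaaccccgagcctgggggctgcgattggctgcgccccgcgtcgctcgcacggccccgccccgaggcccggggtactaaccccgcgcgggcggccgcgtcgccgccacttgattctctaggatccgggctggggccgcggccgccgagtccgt
The run holds ACCACA, one form of the RUNX recognition sequence, 2 times. It began 26 bases after the start in Runx1, 21 bases after it in Runx2 and 136 bases before it in Runx3. Searched on both strands, it was found in 4 of 32851 windows of this length (0.0122%). These were the windows of the 3 Runx genes and of Gm16225, a non-coding gene that overlaps the Runx3 window. ACCACA or its reverse complement was in 16.8% of all windows, and 1.81% held it at least 2 times. The P1 windows of Runx1, Runx2 and Runx3 held 2, 3 and 2 copies, and the P2 windows of Runx1 and Runx3 and the Cbfb window held 0. No P2 window of Runx2 was in the promoter set. The P2 windows were also richer in G and C, at 69.0% for Runx1 and 77.3% for Runx3, than the P1 windows, at 45.0% and 63.7%. A match describes letters only and does not show that a RUNX protein was bound.

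The deposited lists give peak positions without scores or read counts, so depth was unknown and more peaks cannot be told apart from deeper libraries. H3K27ac lists were the shortest, at 21709 to 30150 peaks, then H3K4me3 at 30310 to 39320 and H3K4me1 at 102927 to 131205. DM replicates differed in H3K27ac, with 27376 and 21910 peaks covering 20.3 and 13.5 Mb. Markers of the labelled cells were read as H3K27ac summed over their windows. The 8 HSPC markers held 51.7 and 31.8 kb in DM, 55.4 and 65.4 kb in Npm1c, 27.005 and 29.938 kb in Flt3-ITD, 6.65 and 6.84 kb in neutrophils and 10.8 and 10.8 kb in WT HSPC. Gata2 and Mecom were among these markers and had no peak in either DM library. Mecom had none in WT HSPC, and Erg was the 1 marker of the 8 with H3K27ac in neutrophils. The 10 neutrophil markers held 32.9 and 35.6 kb in neutrophils and at most 2.69 kb in any HSPC library. The 8 erythroid markers differed between HSPC groups, with 3.42 and 2.31 kb in DM, 36.9 and 27.2 kb in Npm1c, 15.7 and 20.6 kb in Flt3-ITD, 1.82 and 1.75 kb in neutrophils and 22.9 and 21.3 kb in WT HSPC. In bulk chromatin, fewer cells of a type and less mark per cell cannot be told apart.

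Coverage of a gene is given below as the kb under peaks within its span and 10 kb on each side. A change is the difference between groups of log2(bp + 500), and a gene was called at a Benjamini-Hochberg adjusted p below 0.05, over all genes tested for that mark and comparison, in limma fitted to the 10 libraries of the mark. H3K27ac peaks vary in width, whereas H3K4me1 and H3K4me3 peaks are 1 kb blocks, so coverage by the methyl marks moves in steps of 1 kb. The genes were marked very differently (see the plot of kb by library). Runx1 carried 68 to 79 kb of H3K4me1, Runx2 55 to 68 kb, Runx3 12 to 20 kb, Cbfb 5 to 15 kb and Runx1t1 0 to 5 kb. These are levels per window, and the windows span 244.6, 338.8, 77.3, 67.3 and 172.4 kb in that order. Per kb of window, Runx1t1 had the least of each mark among the 5 genes. It had no H3K27ac peak in any of the 10 libraries, and the other members carried H3K27ac in all of them.

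**Figure D1:**
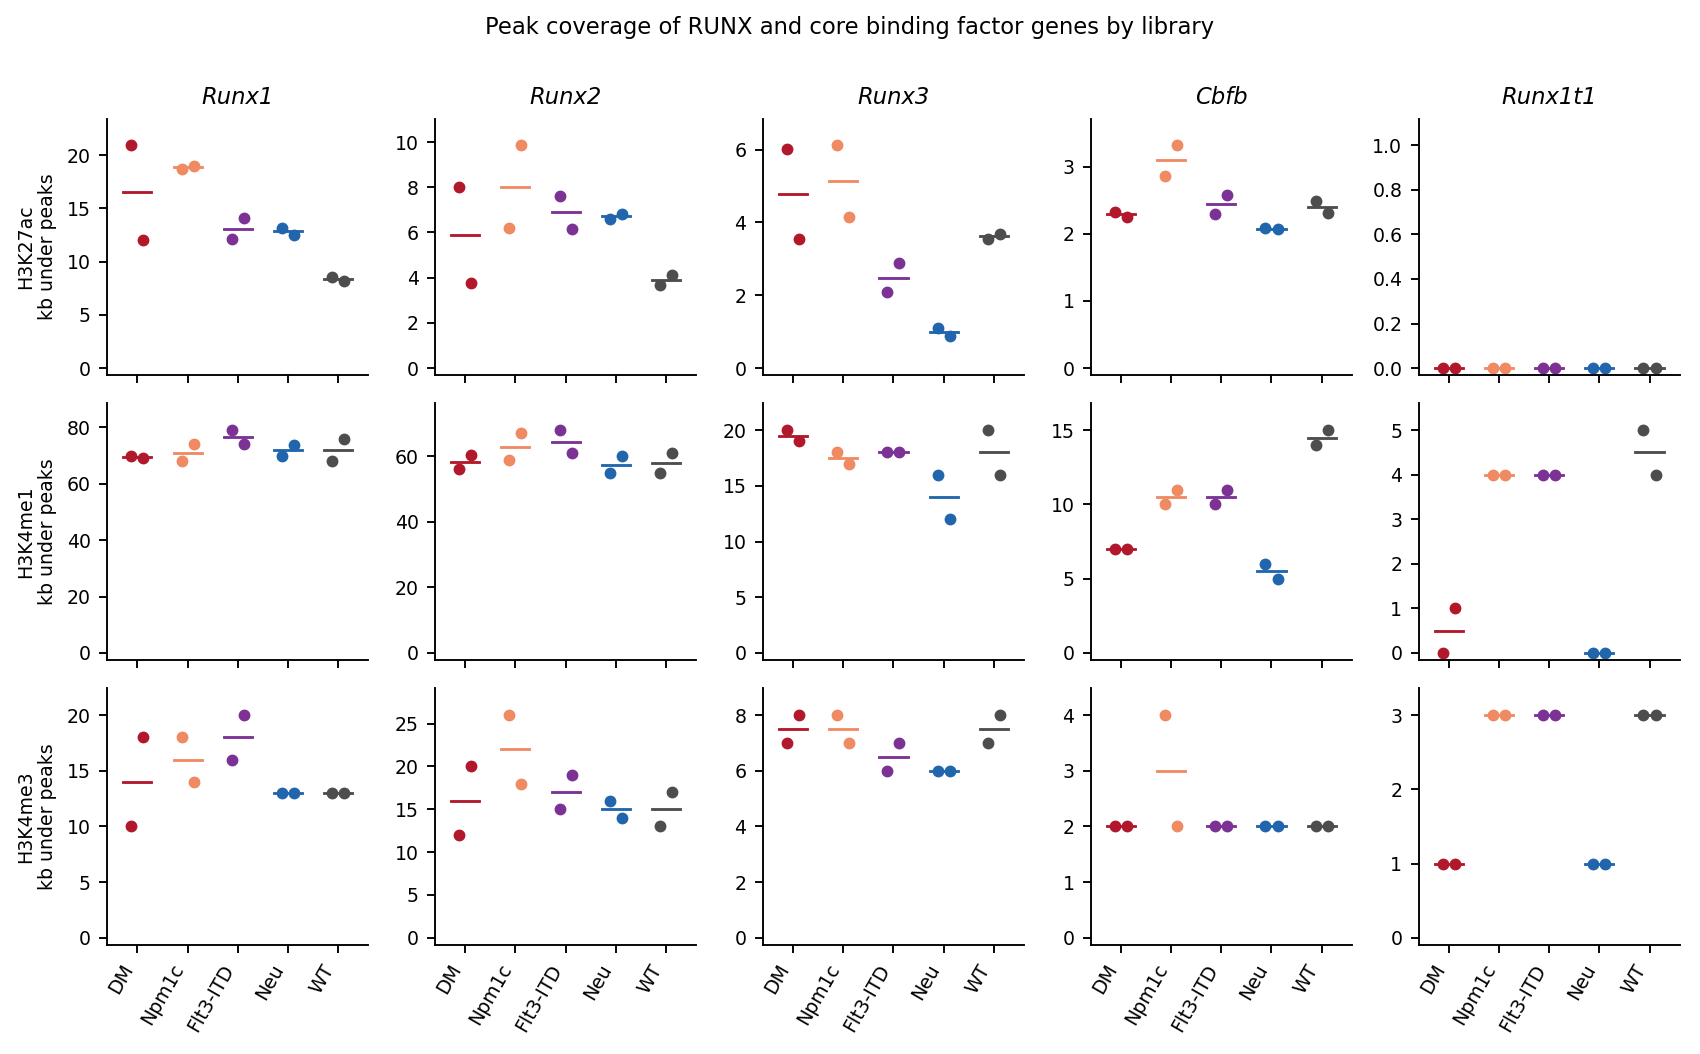
Kb under peaks within the gene span and 10 kb on each side (vertical axes, from about 0) for each member (columns) and mark (rows). Points are the 2 libraries of a group and short lines their mean; every Runx1 H3K27ac point of DM, Npm1c, Flt3-ITD and neutrophils lies above both WT HSPC points, and Runx1t1 H3K4me1 reaches 1 kb at most in DM and neutrophils.

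Calls for the members are set here against those for all genes. For H3K27ac, 1 of the 4 members tested was called in Npm1c against WT HSPC (Runx1), where 17.7% of all 13637 genes were called. Likewise 1 of 4 was called in neutrophils against WT HSPC (Runx3; 36.4% of all genes) and 1 of 4 in DM against Npm1c (Cbfb; 33.9%). By limma 0 of 4 were called in Flt3-ITD against WT HSPC (0 at an unadjusted p under 0.05), where 0.103% of all genes were called. DM against WT HSPC called 0 of 4 (1 unadjusted, Runx1) and 13% of all genes, and DM against Flt3-ITD called 0 of 4 (1 unadjusted, Runx3) and 2.49% of all genes. For H3K4me1, with 5 members among 17381 genes tested, 2 were called in DM against WT HSPC (18.1% of all genes), 2 in neutrophils (23.3%), 2 in DM against Npm1c (15.2%) and 2 in DM against Flt3-ITD (9.33%), each time Cbfb and Runx1t1. None of 5 was called in Npm1c against WT HSPC (0.334% of all genes) or in Flt3-ITD against WT HSPC (1.70%), and Cbfb alone was at an unadjusted p under 0.05 in both. For H3K4me3, with 16534 genes tested, Runx1t1 was the 1 member called in DM against WT HSPC (8.72% of all genes), in neutrophils (17.7%), in DM against Npm1c (8.49%) and in DM against Flt3-ITD (5.72%). In Npm1c (1.52% of all genes) and Flt3-ITD (3.00%) against WT HSPC no member was called or at an unadjusted p under 0.05. The comparisons with WT HSPC share the same control libraries.

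Runx1 carried more H3K27ac in every mutant and in neutrophils than in WT HSPC, but the rise was called only in Npm1c and that call depended on scaling. Coverage was 20.9 and 12.1 kb in DM, 18.7 and 19.0 kb in Npm1c, 12.1 and 14.1 kb in Flt3-ITD, 13.2 and 12.5 kb in neutrophils and 8.52 and 8.23 kb in WT HSPC. All 8 libraries of the first 4 groups lay above both WT HSPC libraries, and the DM pair was the most spread. Genome-wide, H3K27ac peaks covered 20.3 and 13.5 Mb in DM, 23.4 and 23.9 Mb in Npm1c and 16.6 and 18.3 Mb in Flt3-ITD. They covered 16.0 and 16.6 Mb in neutrophils and 15.2 and 15.3 Mb in WT HSPC. The share of all genes with such a separation was not counted. In Npm1c Runx1 rose by 1.13 (log2, SE 0.28, adjusted p = 0.0384). It was called without either DM library, but not when a library of any other group was left out (adjusted p = 0.0532 to 0.190). The median of all genes was itself 0.36 higher in Npm1c than in WT HSPC. With each library centred on its median gene, the Runx1 change was 0.73 and not called (adjusted p = 0.108), and with every list thinned at random to the same number of peaks it was 0.69 (adjusted p = 0.374). That thinning, here and below, was a single random draw. In DM the change was 0.89 (SE 0.28, adjusted p = 0.0857) and 0.85 after centring, where it was called (adjusted p = 0.00846). It was 0.50 without DM replicate 1 (adjusted p = 0.0548) and 1.27 without DM replicate 2 (adjusted p = 0.00466). Neutrophils differed from WT HSPC by 0.59 (SE 0.28, adjusted p = 0.146), or 0.72 after centring (adjusted p = 0.00827). Flt3-ITD differed by 0.61 (SE 0.28, adjusted p = 0.360). H3K4me1 and H3K4me3 over Runx1 had no called change in any comparison. H3K4me1 was 69.5 ± 0.707 kb in DM, 71.0 ± 4.24 kb in Npm1c, 76.5 ± 3.56 kb in Flt3-ITD, 71.9 ± 2.73 kb in neutrophils and 72.0 ± 5.66 kb in WT HSPC (SD, n = 2).

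The H3K27ac peaks of the 10 libraries merged into 42 regions over Runx1, of which 5 were present in all libraries, 13 in a single library and 39 overlapped H3K4me1. Positions below are kb downstream of the P1 start at 92826074 on chromosome 16, minus strand; the annotation used gives spans and starts but no exons. The 5 regions shared by all libraries were at P1 (92823988-92826897), at 24.3 to 25.7 kb (92800422-92801771), at 108.9 to 111.4 kb (92714719-92717154), at P2 (92695056-92698846) and at 203.7 to 206.2 kb (92619828-92622365). These are the constant frame of the gene, around which groups gained or lacked sites.

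The region at P2 was wider in DM than in any other group. It held 3648 and 3414 bp in DM, 2180 and 2224 bp in Npm1c, 2149 and 2331 bp in Flt3-ITD, 1979 and 1993 bp in neutrophils and 1898 and 1852 bp in WT HSPC. A pair of neighbouring regions at 131.2 to 132.3 kb, downstream of P2, were present in DM alone, with 578 and 396 bp and with 464 and 251 bp. Around P1, in contrast, all HSPC groups had H3K27ac that neutrophils lacked. The region at 2.2 to 3.8 kb (92822318-92823914) held 1495 and 1047 bp in DM, 1456 and 1189 bp in Npm1c, 861 and 1241 bp in Flt3-ITD, 0 in both neutrophil libraries and 785 and 715 bp in WT HSPC. H3K4me3 at P1 was present in all 10 libraries. Within 1 kb of P2 it covered 0 and 730 bp in DM, 848 and 1000 bp in Npm1c and 1000 bp in both Flt3-ITD libraries. It covered 899 and 863 bp there in neutrophils and 1000 and 872 bp in WT HSPC. The DM libraries were the lowest there, with no coverage in replicate 1 and 730 bp in replicate 2, nearer to the other groups. Over the whole window, H3K4me3 was 10 kb in DM replicate 1 and 18 kb in DM replicate 2. A link with the wider H3K27ac of DM at P2 was not tested.

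The +23 kb element is an intronic enhancer of Runx1 known from blood stem cells of the mouse embryo. It was taken as the stretch from 22 to 25 kb, which 4 H3K27ac regions overlapped. The main one, at 24.3 to 25.7 kb, was present in all libraries. It held 1202 and 879 bp in DM, 1203 and 1350 bp in Npm1c, 668 and 1104 bp in Flt3-ITD, 598 and 986 bp in neutrophils and 939 and 1063 bp in WT HSPC. Both Npm1c libraries were the highest, replicate 1 by a single base over DM replicate 1, and the other groups overlapped. Its neighbour at 23.4 to 24.2 kb (92801896-92802682) held 644 and 0 bp in DM, 656 and 757 bp in Npm1c, 0 and 271 bp in Flt3-ITD, 540 and 221 bp in neutrophils and 359 and 268 bp in WT HSPC. A short region at 22.7 to 22.9 kb was in Npm1c replicate 1 alone, and another at 22.4 to 22.6 kb in neutrophil replicate 1 alone. The stretch taken as the element therefore held H3K27ac in every group, neutrophils included. In DM replicate 2 and Flt3-ITD replicate 1 this rested on the main region alone, which runs past 25 kb. H3K4me3 peaks within 92800809-92802184 were also found in all 10 libraries.

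Npm1c lists covered the most H3K27ac genome-wide, at 23.4 and 23.9 Mb. Npm1c libraries also lay above all others in the stretch from 6 to 35 kb, which holds the +23 kb element, and in the next, from 35 to 95 kb. In the first H3K27ac summed to 2.09 and 0.879 kb in DM, 4.30 and 4.04 kb in Npm1c, 0.668 and 1.83 kb in Flt3-ITD, 1.87 and 1.67 kb in neutrophils and 1.298 and 1.331 kb in WT HSPC. Part of the Npm1c coverage lay in the regions at 6.7 to 8.0 kb and 17.5 to 18.4 kb, with 1041 and 850 bp and 787 and 831 bp in Npm1c and no peak in WT HSPC. From 35 to 95 kb the sums were 1.349 and 0 kb in DM, 2.05 and 1.398 kb in Npm1c, 0 in both Flt3-ITD and both neutrophil libraries, and 0.304 and 0.200 kb in WT HSPC. From 95 to 120 kb, the stretch upstream of P2, H3K27ac summed to 4.05 and 2.55 kb in DM, 4.14 and 4.17 kb in Npm1c, 3.22 and 3.62 kb in Flt3-ITD, 4.17 and 3.64 kb in neutrophils and 1.25 and 0.811 kb in WT HSPC. Here every mutant and neutrophil library exceeded both WT HSPC libraries. All of them but DM replicate 2 also covered more Mb genome-wide than WT HSPC. One region in this stretch, at 99.0 to 99.6 kb (92726486-92727090), was present in all 6 mutant libraries, at 321 to 573 bp, and in no neutrophil or WT HSPC library. Another, at 107.3 to 108.8 kb, held 662 and 498 bp in DM and 1432 and 1372 bp in neutrophils, and no peak in Npm1c, Flt3-ITD or WT HSPC. A region at 29.2 to 29.7 kb was found in neutrophils alone (294 and 466 bp), with H3K4me3 there in neutrophils alone as well. Farther downstream of P2, the sums were 3.71 and 1.13 kb in DM, 1.05 and 2.71 kb in Npm1c, 2.81 and 2.43 kb in Flt3-ITD, 3.16 and 3.13 kb in neutrophils and 0.819 and 0.909 kb in WT HSPC. The stretches were drawn on the map of peaks, so these sums describe it and carry no test.

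**Figure D2:**
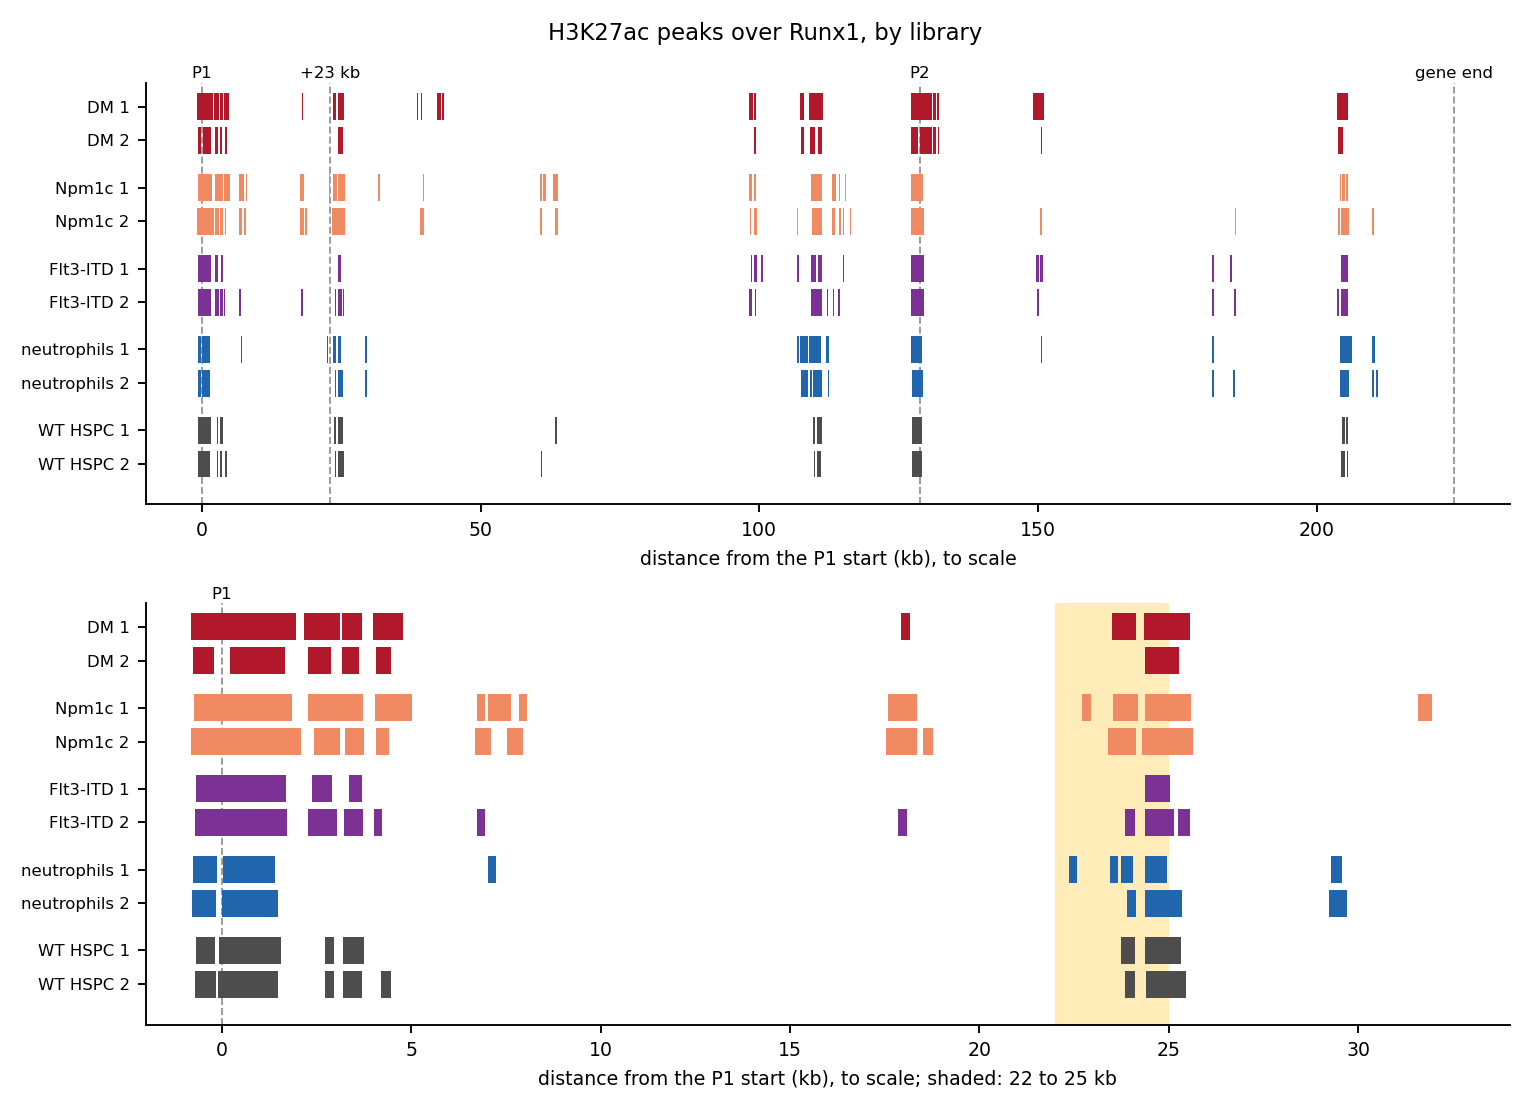
H3K27ac peaks over Runx1 against the distance from the P1 start (kb), 1 row per library, for the gene with 10 kb on each side (upper panel) and from 2 kb before to 34 kb after P1 (lower panel). Bars are peaks; the shaded stretch is 22 to 25 kb, which holds peaks in all 10 libraries, and the stretch from 95 to 120 kb holds more in every mutant and neutrophil library than in WT HSPC.

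Runx2 had no called change in any mark, and its distal promoter was without H3K27ac throughout. Within 1 kb of the P1 start there was no H3K27ac in any of the 10 libraries, although H3K4me3 covered 1000 bp in all 10 and H3K4me1 994 to 1000 bp. H3K27ac lay instead within the gene, on chromosome 17, minus strand. The promoter set held no P2 window for Runx2, so it was not tested whether any of these regions lies at P2. Its largest region, at 78.0 to 81.4 kb from the upstream end (44733401-44736845), held 3355 and 2341 bp in DM, 2065 and 3239 bp in Npm1c, 3083 and 3170 bp in Flt3-ITD, 2267 and 2033 bp in neutrophils and 1334 and 1781 bp in WT HSPC. All other libraries lay above both WT HSPC libraries, and all of them but DM replicate 2 also covered more Mb genome-wide. The region 44776495-44778078, at the lower end of the overlapping gene Supt3, which encodes a subunit of a histone acetyltransferase complex, was present in all libraries at 980 to 1562 bp. Over the whole window Runx2 held 8.001 and 3.77 kb of H3K27ac in DM, 6.19 and 9.86 kb in Npm1c, 7.62 and 6.17 kb in Flt3-ITD, 6.60 and 6.82 kb in neutrophils and 3.66 and 4.13 kb in WT HSPC. DM overlapped WT HSPC, with DM replicate 2 between the WT HSPC libraries. The change was 0.92 in Npm1c (SE 0.33, adjusted p = 0.0832), 0.75 in Flt3-ITD (adjusted p = 0.344), 0.46 in DM (adjusted p = 0.437, and -0.040 without DM replicate 1) and 0.72 in neutrophils (adjusted p = 0.134). After centring, the neutrophil change was 0.85 and called (adjusted p = 0.0261). Genes of bone-forming cells, which RUNX2 drives, had little H3K27ac. Of 7 markers of such cells, 6 were without a peak in each HSPC group and 5 in neutrophils, and Sp7, the osteoblast factor, was the 1 marker with peaks in HSPC.

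Runx3 was lower in H3K27ac in neutrophils, at both promoters. Coverage was 6.02 and 3.55 kb in DM, 6.12 and 4.15 kb in Npm1c, 2.09 and 2.88 kb in Flt3-ITD, 1.10 and 0.882 kb in neutrophils and 3.55 and 3.69 kb in WT HSPC. Both neutrophil libraries lay below every HSPC library, and the share of all genes that do so was not counted. The neutrophil change was -1.47 (log2, SE 0.26, adjusted p = 0.00469), and -1.34 after centring (adjusted p = 0.00111). With every list thinned at random to the same number of peaks it was -1.60 and not called (adjusted p = 0.0900). On chromosome 4, plus strand, the P2 region (135151921-135154210) held 2169 and 2140 bp in DM, 1815 and 2076 bp in Npm1c, 1734 and 2158 bp in Flt3-ITD, 257 and 0 bp in neutrophils and 1627 and 1668 bp in WT HSPC. The P1 region (135119746-135120371) held 352 to 626 bp in all 8 HSPC libraries and 0 in both neutrophil libraries. H3K4me3, by contrast, was kept at both promoters: within 1 kb of P1 it covered 1000 bp in both neutrophil libraries and 931 to 1000 bp in HSPC, and within 1 kb of P2 it covered 748 and 739 bp in neutrophils and 543 to 770 bp in HSPC. Over the window, H3K4me3 was 6 and 6 kb in neutrophils and 7 and 8 kb in WT HSPC, a change of -0.30 that was not called (adjusted p = 0.159). One region near the end of the gene separated genotypes. At 50.3 to 51.9 kb from P1 (135170962-135172534), it held 0 bp in both DM libraries, 1569 and 437 bp in Npm1c, 0 in both Flt3-ITD libraries, 0 in both neutrophil libraries and 827 and 848 bp in WT HSPC. Against WT HSPC the gene changed by 0.32 in DM (adjusted p = 0.491, and -0.023 without DM replicate 1), 0.43 in Npm1c (adjusted p = 0.229) and -0.48 in Flt3-ITD (adjusted p = 0.447), none of them called. The change over the gene was 0.80 for DM against Flt3-ITD (adjusted p = 0.184), and 0.90 after centring, where it was called (adjusted p = 0.0395). Markers of T and NK cells, in which Runx3 acts, held 5.80 and 4.08 kb of H3K27ac in DM, 5.22 and 6.91 kb in Npm1c, 3.99 and 4.18 kb in Flt3-ITD, 4.34 and 4.01 kb in neutrophils and 3.55 and 3.88 kb in WT HSPC. Of the 8 markers, Cd3e, Cd8a, Ncr1 and Gzmb had no H3K27ac peak in any group. In neutrophils the sum came from 2 markers, Cd3d and Cd3g. The windows take in 10 kb on each side, so a peak in them can belong to another gene. The part of such cells in the Runx3 values was not tested.

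**Figure D3:**
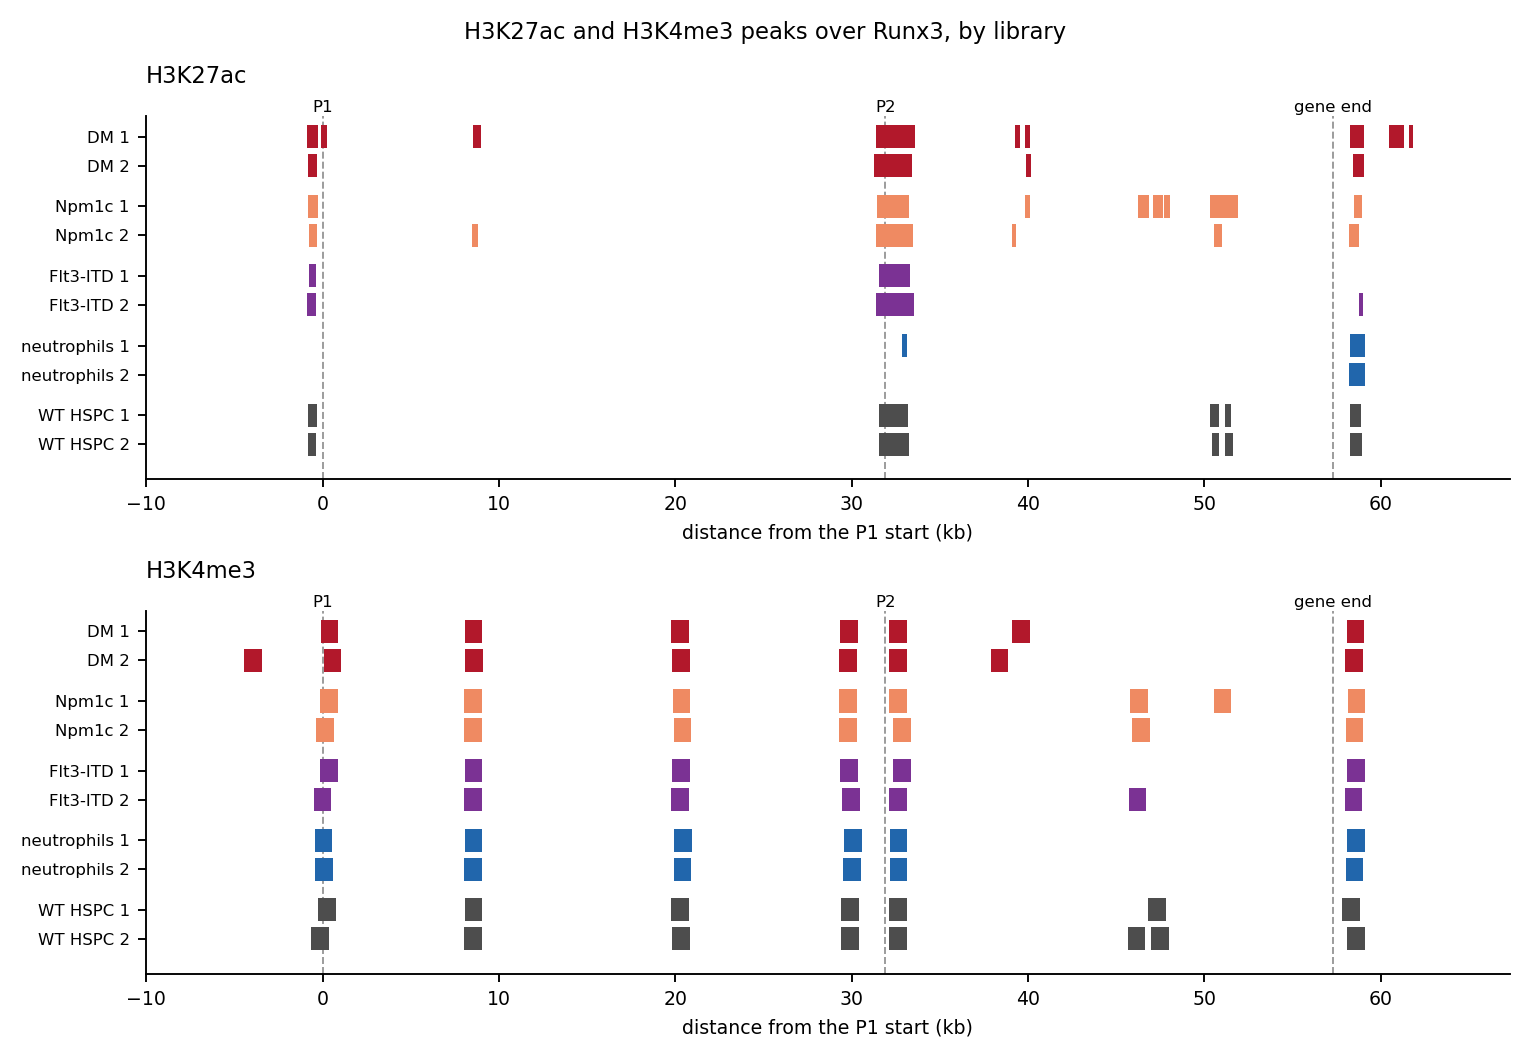
H3K27ac (upper panel) and H3K4me3 (lower panel) peaks over Runx3 against the distance from the P1 start (kb), 1 row per library, with 10 kb on each side. Bars are peaks; neutrophils keep H3K4me3 at P1 and P2 but have 257 and 0 bp of H3K27ac in the P2 region, against 1627 and 1668 bp in WT HSPC.

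Cbfb, the shared partner of the RUNX proteins, had H3K27ac and H3K4me3 at its start in every library, and its H3K4me1 fell in DM and in neutrophils. H3K4me1 coverage was 7 and 7 kb in DM, 10 and 11 kb in Npm1c, 10 and 11 kb in Flt3-ITD, 6 and 5 kb in neutrophils and 14 and 15 kb in WT HSPC. The order of the groups was DM and neutrophils lowest, the single mutants between, and WT HSPC highest, with no overlap between those tiers. How many of all genes separate in this way was not counted. Genome-wide, H3K4me1 peaks covered 104.8 and 109.4 Mb in DM, 102.9 and 125.7 Mb in Npm1c and 128.8 and 116.1 Mb in Flt3-ITD. They covered 110.2 and 110.5 Mb in neutrophils and 122.9 and 131.2 Mb in WT HSPC. The median change of all genes against WT HSPC was -0.21 in DM and -0.16 in neutrophils. DM fell by 1.00 on the log2 scale against WT HSPC (SE 0.10, adjusted p = 0.00189) and neutrophils fell by 1.33 (SE 0.10, adjusted p = 0.000399). After centring these limma changes were -0.73 in DM (adjusted p = 0.0118) and -1.21 in neutrophils (adjusted p = 0.000319). DM was also lower than each single mutant, with a change of -0.55 against Npm1c (SE 0.10, adjusted p = 0.0179) and of -0.55 against Flt3-ITD (adjusted p = 0.0242). The call against Flt3-ITD was lost after centring (-0.35, adjusted p = 0.254) and without any 1 library of DM or Flt3-ITD (adjusted p = 0.0621 to 0.108). That against Npm1c was lost without either DM library or Npm1c replicate 2 (adjusted p = 0.0529 to 0.0812). With every list thinned at random to the same number of peaks neither was called, at -0.49 against Npm1c (adjusted p = 0.123) and 0.22 against Flt3-ITD (adjusted p = 0.580). Each single mutant differed from WT HSPC by -0.45, which was not called (adjusted p = 0.322 in Npm1c and 0.125 in Flt3-ITD). Of 17 H3K4me1 regions, 5 were present in all libraries: 1 upstream of the start, 1 that ends at it, 1 at 2.0 kb and the pair beyond the gene end. The regions at 11.0 kb (105181689-105183157) and 18.0 kb (105188628-105189829) were present in both libraries of Npm1c, Flt3-ITD and WT HSPC and in no DM or neutrophil library. Both lie within the gene, and neither overlapped H3K27ac. Within 1 kb of the start H3K4me1 covered 287 and 277 bp in DM, 958 and 1054 bp in Npm1c, 157 and 444 bp in Flt3-ITD, 638 and 665 bp in neutrophils and 1118 and 868 bp in WT HSPC. DM, Flt3-ITD and neutrophils lay below both Npm1c and both WT HSPC libraries there. H3K4me3 covered 828 to 895 bp of the same stretch in all 10 libraries.

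H3K27ac over Cbfb had a called change in DM against Npm1c alone. The region at the start (105170705-105172145, chromosome 8, plus strand) held 1441 and 1297 bp in DM, 1055 and 1196 bp in Npm1c, 1219 and 1086 bp in Flt3-ITD, 1332 and 1281 bp in neutrophils and 1093 and 1121 bp in WT HSPC. Both DM libraries were above both Npm1c libraries there. Over the window the order was the other way, with 2.33 and 2.26 kb in DM and 2.87 and 3.32 kb in Npm1c, and a called change of -0.36 (SE 0.10, adjusted p = 0.0286). The median of all genes was itself at -0.31 in this comparison, and after centring the Cbfb change was -0.003 (adjusted p = 0.986). It was not called without DM replicate 2, without Npm1c replicate 2 or without any 1 of the WT HSPC and neutrophil libraries (adjusted p = 0.0583 to 0.132). The DM to Npm1c difference lay in the region 105224483-105226348, outside Cbfb and at the lower end of the neighbouring gene D230025D16Rik, which held 884 and 961 bp in DM and 1573 and 1841 bp in Npm1c. With the gene span alone, the change was 0.10 and not called (adjusted p = 0.366), and with every list thinned at random to the same number of peaks it was 1.19 (adjusted p = 0.322).

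Runx1t1 was a weakly marked gene whose H3K4me1 fell in DM and in neutrophils, and which had fewer H3K4me3 peaks there. Its H3K4me1 was 0 and 1 kb in DM, 4 and 4 kb in Npm1c, 4 and 4 kb in Flt3-ITD, 0 and 0 kb in neutrophils and 5 and 4 kb in WT HSPC. DM and neutrophils lay below all other libraries, and how many of all genes separate in this way was not counted. The change in DM was -2.52 against WT HSPC (SE 0.47, adjusted p = 0.0173), -2.38 against Npm1c (adjusted p = 0.0238) and -2.38 against Flt3-ITD (adjusted p = 0.0324). Neutrophils fell by 3.31 (SE 0.47, adjusted p = 0.00500). These sizes depend on the 500 bp added before the logarithm, since the DM and neutrophil values are at or near 0; with 2000 bp the neutrophil change was -1.70. In DM against WT HSPC the change was -1.73 without DM replicate 1 and -3.31 without DM replicate 2, and the call was lost without either WT HSPC library (adjusted p = 0.0741 and 0.0852). Against Npm1c it was lost without either Npm1c library (adjusted p = 0.0651 and 0.0867), and against Flt3-ITD without any 1 library of a group other than DM (adjusted p = 0.0564 to 0.128). With every list thinned at random to the same number of peaks none of the 3 DM changes was called (-2.20 to -1.95, adjusted p = 0.0990 to 0.146). Runx1t1 spans chr4:13742628-13895056, and its 5 H3K4me1 regions lay within the first 65 kb from the lower-numbered end. The regions 13750023-13752277 and 13784570-13786203 were present in all 6 libraries of Npm1c, Flt3-ITD and WT HSPC and in no DM or neutrophil library. A region at 13805338-13806862 was present in both Npm1c and both WT HSPC libraries, and in no DM, Flt3-ITD or neutrophil library.

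H3K4me3 over Runx1t1 was 1 and 1 kb in DM, 3 and 3 kb in Npm1c, 3 and 3 kb in Flt3-ITD, 1 and 1 kb in neutrophils and 3 and 3 kb in WT HSPC. The peak at 13742893-13744145, by the lower end of the gene, was kept in all 10 libraries, and those at 13751036-13752123 and 13784626-13785766 were absent in DM and neutrophils. The change was -1.22 in DM and in neutrophils against WT HSPC, and in DM against Npm1c and against Flt3-ITD. limma gave adjusted p-values of 2.41e-14 to 5.57e-14 because the libraries of a group held the same number of 1 kb peaks and so showed no spread. With the spread set to no less than a difference of 1 peak between replicates, an alternative added after the data were seen, none of these was called (adjusted p = 0.108 in neutrophils, 0.210 in DM). The same 2 groups carried less H3K4me1 over erythroid markers, at 18.8 and 19.8 kb in DM, 40.7 and 40.8 kb in Npm1c, 29.7 and 44.5 kb in Flt3-ITD, 14 and 15 kb in neutrophils and 44.6 and 42.7 kb in WT HSPC. Megakaryocyte markers followed, at 31.6 and 34.4 kb in DM, 52.5 and 52.9 kb in Npm1c, 51.2 and 47.6 kb in Flt3-ITD, 28.1 and 31.2 kb in neutrophils and 53.4 and 55.9 kb in WT HSPC. HSPC markers were lower there too, at 121 and 141 kb in DM and 102 and 102 kb in neutrophils. They held 174 and 214 kb in Npm1c, 188 and 171 kb in Flt3-ITD and 178 and 183 kb in WT HSPC. Monocyte and macrophage markers went the other way, at 50.7 and 49.7 kb in DM, 55 and 49 kb in neutrophils and 43.8 and 45.2 kb in WT HSPC. So did B-lymphoid markers in DM, at 48.0 and 51.6 kb against 39.7 and 36.3 kb in WT HSPC. The part of any of these cell types in the Cbfb and Runx1t1 values was not tested.

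**Figure D4:**
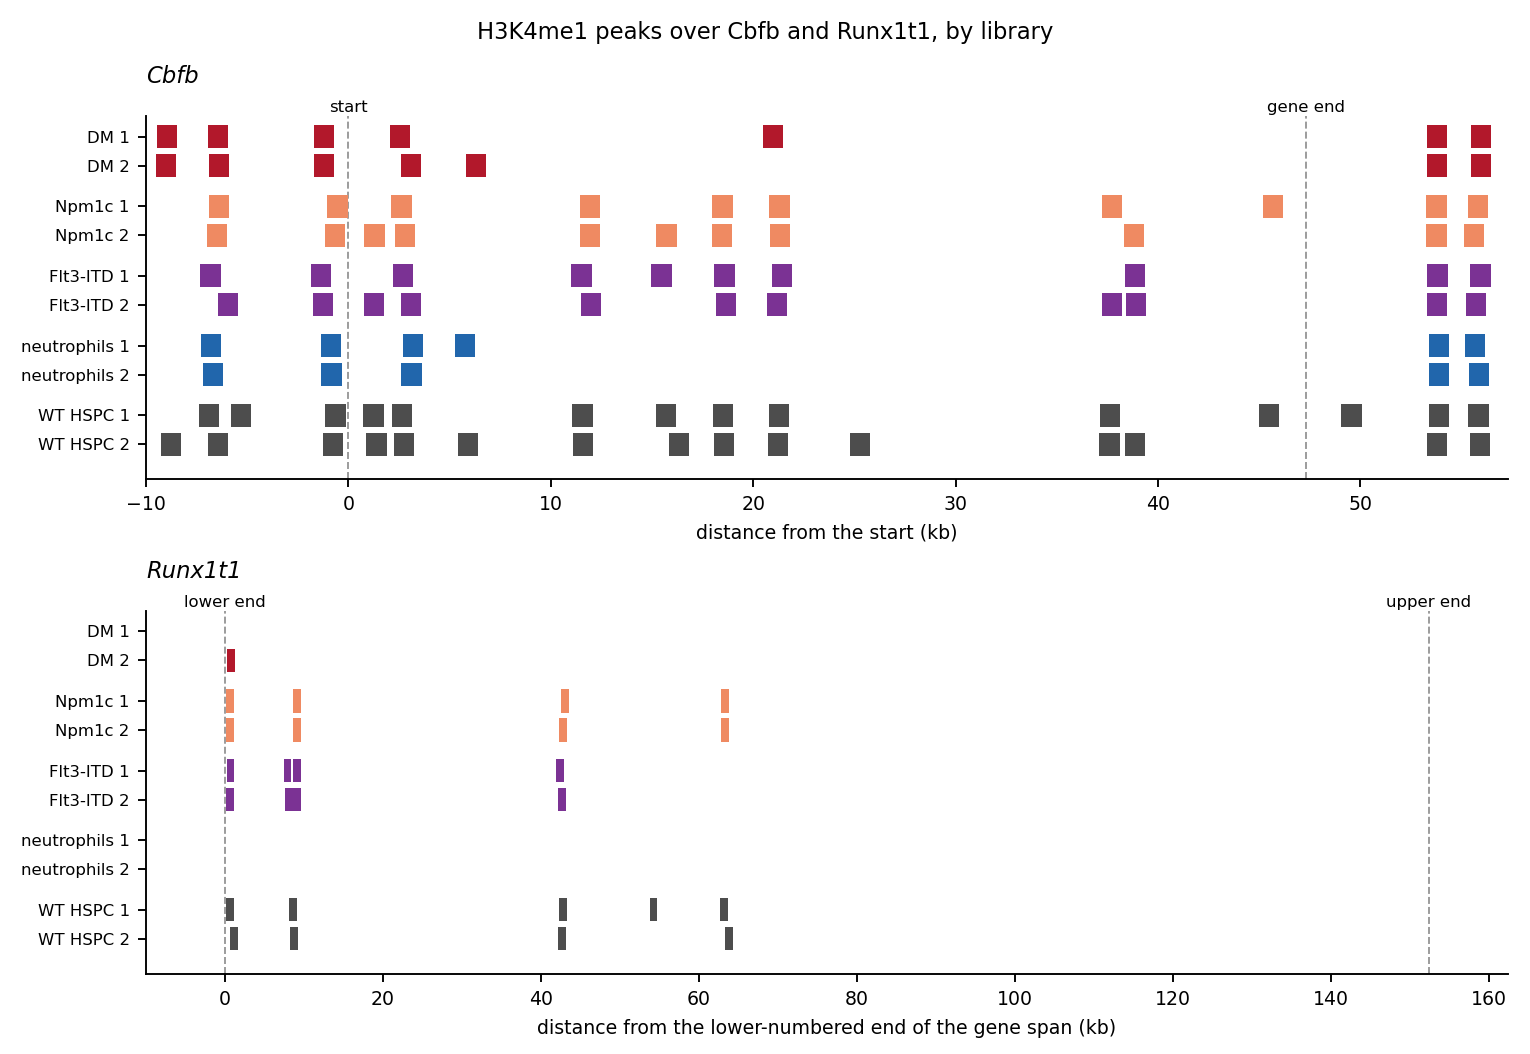
H3K4me1 peaks over Cbfb (upper panel, distance from its start in kb) and Runx1t1 (lower panel, distance from the lower-numbered end of the gene in kb), 1 row per library, with 10 kb on each side. Bars are 1 kb peaks; between 10 and 20 kb of Cbfb and beyond 5 kb of Runx1t1, peaks are present in Npm1c, Flt3-ITD and WT HSPC and absent in DM and neutrophils.

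Whether DM differed from the sum of the single-mutant changes was asked with the interaction of Npm1c and Flt3-ITD. For H3K27ac, 0 of 4 members were called (18.0% of all genes), and Runx2 (-1.21, SE 0.47, adjusted p = 0.103) and Cbfb (-0.38, SE 0.14, adjusted p = 0.0899) were at an unadjusted p under 0.05. For Runx1 it was -0.85 (SE 0.40, adjusted p = 0.156). For H3K4me1, 0 of 5 were called (3.35% of all genes), and Runx1t1 (-2.23, SE 0.66, adjusted p = 0.179) was the 1 at an unadjusted p under 0.05. For H3K4me3, 1 of 5 was called (5.87% of all genes): Runx1t1, at -1.22, with adjusted p = 2.92e-13, or 1.00 with the spread of at least 1 peak. Both single mutants held 3 kb, as WT HSPC did, and DM held 1 kb.

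**Figure D5:**
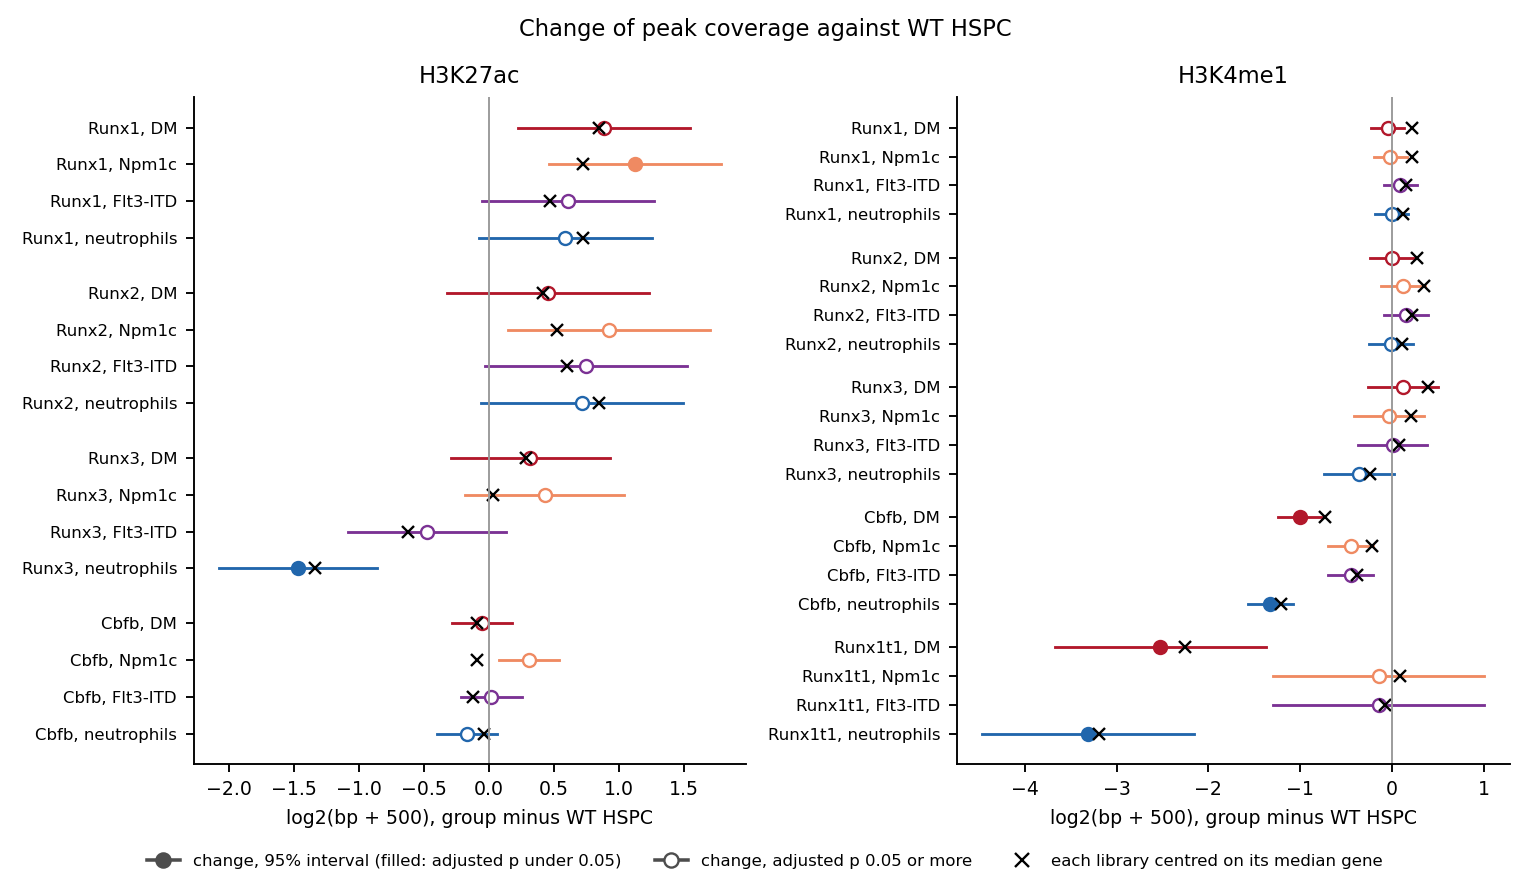
Change of log2(bp + 500) against WT HSPC for H3K27ac (left) and H3K4me1 (right), for each member and group. Circles are estimates with 95% intervals from limma, filled where the adjusted p is below 0.05, and crosses are the changes after centring each library; the filled circles are Runx1 in Npm1c and Runx3 in neutrophils for H3K27ac, and Cbfb and Runx1t1 in DM and neutrophils for H3K4me1.

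At the level of regions, a site was gained when present in both libraries of a group and in neither WT HSPC library, and lost in the reverse case. An exact test of 2 against 2 libraries cannot give a two-sided p below 0.333, so regions carry no test. Of 77 H3K27ac regions at the members, Npm1c gained 9 and lost 0, against 7.91% and 0.196% of all 48396 regions. Flt3-ITD gained 4 and lost 1 (4.43% and 2.42% of all regions), DM gained 6 and lost 1 (7.54% and 6.55%), and neutrophils gained 9 and lost 4 (16.3% and 9.23%). Runx1, which has 42 of the 77 regions, held 7 of the 9 gains in Npm1c, 4 of the 4 in Flt3-ITD, 5 of the 6 in DM and 5 of the 9 in neutrophils. Of 226 H3K4me1 regions, DM gained 10 and lost 16 (5.40% and 12.4% of all 199891 regions), and neutrophils gained 14 and lost 25 (8.70% and 15.1%). Cbfb lost 5 regions in DM and 6 in neutrophils of its 17, and Runx1t1 lost 3 and 4 of its 5. Of 80 H3K4me3 regions, DM gained 4 and lost 7 (9.03% and 5.93% of all 58183 regions), and neutrophils gained 6 and lost 7 (11.2% and 10.1%).

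The factors that work with RUNX1 on DNA were followed as a list of 11 genes, and H3K27ac could be tested in all. Npm1c had 4 rises and 0 falls, where 17.7% of all genes rose, with a list median of 0.62 against 0.36 for all genes. After centring 0 were called. Those 4 were Gata2, a stem cell factor (8.46 kb in Npm1c and 1.38 kb in WT HSPC, 2.25, SE 0.50, adjusted p = 0.0305), Erg (12.4 and 5.14 kb, 1.18, adjusted p = 0.0426), Lmo2 (11.2 and 6.71 kb, 0.69, adjusted p = 0.0272) and Ldb1 (6.93 and 4.20 kb, 0.66, adjusted p = 0.0298). In DM 1 rose and 4 fell (6.94% and 6.04% of all genes), with a median of -0.18 against 0.02 for all genes (2 and 5 after centring). Tal1, a stem cell and erythroid factor, averaged 1.44 kb in DM and 6.85 kb in WT HSPC (-1.94, SE 0.17, adjusted p = 0.00161). Its partner Lmo2 averaged 2.50 kb in DM and 6.71 kb in WT HSPC (-1.27, adjusted p = 0.00338). Gata1 and Gata2 had no H3K27ac peak in DM, against means of 1.502 and 1.385 kb in WT HSPC (adjusted p = 0.00438 and 0.0481). Erg rose, at 13.4 kb in DM and 5.14 kb in WT HSPC (1.23, adjusted p = 0.0420). In Flt3-ITD 0 of 11 were called, where 0.0807% of all genes rose and 0.0220% fell, with a median of 0.22 against 0.12. In neutrophils 3 rose (Fli1, Spi1 and Ets1) and 6 fell (13.2% and 23.2% of all genes), with a median of -0.93 against -0.12. The largest of these were Tal1 (0.626 kb in neutrophils and 6.85 kb in WT HSPC, -2.71, adjusted p = 8.86e-05) and Ets1 (5.30 and 0.764 kb, 2.20, adjusted p = 0.000235). DM against Npm1c had 0 rises and 5 falls, where 30.9% of all genes fell, with a median of -0.50 against -0.31. DM against Flt3-ITD had 0 rises and 2 falls, Tal1 and Lmo2, where 1.86% of all genes fell, with a median of -0.40 against -0.09. For H3K4me1, Tal1 and Gata1 fell in DM and in neutrophils against WT HSPC, and no other gene of the list was called (16.2% and 18.6% of all genes fell; medians -0.41 against -0.21 and 0.02 against -0.16; 1 fall in each after centring). The erythroid markers given above moved with these values, and their part in them was not tested.

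RUNX co-regulators were a list of 21 genes, of which 19 could be tested for H3K27ac. Npm1c had 6 rises and 0 falls (median 0.48 against 0.36 for all genes), against 17.7% of all genes rising. Hdac3, a histone deacetylase, had 6.13 kb in Npm1c and 2.67 kb in WT HSPC (1.06, adjusted p = 0.0202) and was the 1 called after centring (0.67, adjusted p = 0.0480). Larger changes included those of Cbfa2t3, a relative of Runx1t1 (3.91 kb in Npm1c and 1.05 kb in WT HSPC, 1.57, adjusted p = 0.0424), and of the co-repressor Tle2 (1.22 and 0.203 kb, 1.33, adjusted p = 0.0271). DM had 0 called against WT HSPC (6.94% of all genes rose and 6.04% fell; median -0.03 against 0.02). Flt3-ITD also had 0 called, where 0.0807% of all genes rose and 0.0220% fell (median 0.09 against 0.12). In neutrophils 2 rose and 5 fell (13.2% and 23.2% of all genes; median -0.18 against -0.12; 3 and 4 after centring), and Cbfa2t3 had no peak there, against 1.05 kb in WT HSPC (adjusted p = 0.0220). DM against Npm1c had 0 rises and 8 falls (30.9% of all genes fell; median -0.47 against -0.31; 1 and 3 after centring), among them Cbfa2t3 (1.10 kb in DM and 3.91 kb in Npm1c, -1.51, adjusted p = 0.0290) and Hdac3 (2.61 and 6.13 kb, -1.12, adjusted p = 0.00527). For H3K4me1, all 21 were tested and DM had 0 rises and 6 falls (16.2% of all genes fell; median -0.37 against -0.21; 1 and 3 after centring). Cbfa2t2, another relative of Runx1t1, averaged 5.56 kb in DM and 19.6 kb in WT HSPC (-1.73, SE 0.19, adjusted p = 0.00248). Neutrophils had 2 rises and 5 falls (4.67% and 18.6% of all genes; median -0.18 against -0.16; 2 and 4 after centring), with Cbfa2t2 at 7.64 kb in neutrophils and 19.6 kb in WT HSPC (-1.33, adjusted p = 0.00478).

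Genes known as RUNX1 targets in blood were a list of 22, with 19 tested for H3K27ac. Npm1c had 5 rises and 0 falls (17.7% of all genes rose; median 0.59 against 0.36 for all genes; 1 and 0 after centring). Pf4, a platelet chemokine, had a mean of 0.969 kb in Npm1c and no peak in WT HSPC (adjusted p = 0.00207), and Itga2b, a platelet integrin, had 2.05 and 0.608 kb (1.21, adjusted p = 0.0233). The 6 megakaryocyte markers held 4.35 and 3.42 kb of H3K27ac in DM, 15.4 and 11.8 kb in Npm1c, 4.99 and 7.56 kb in Flt3-ITD, 2.53 and 2.54 kb in neutrophils and 8.23 and 9.04 kb in WT HSPC. Pf4 and Itga2b are themselves among these markers. In DM 2 rose and 3 fell (6.94% and 6.04% of all genes; median 0.00 against 0.02; 3 and 4 after centring). Csf1r, the receptor of the macrophage growth factor, averaged 3.16 kb in DM and 0.706 kb in WT HSPC (1.59, SE 0.38, adjusted p = 0.0343). The 6 monocyte and macrophage markers, Csf1r among them, held 10.9 and 3.56 kb in DM and 1.32 and 0.846 kb in WT HSPC. They held 1.35 and 5.47 kb in Npm1c, 3.82 and 2.58 kb in Flt3-ITD and 3.58 and 3.23 kb in neutrophils. DM replicate 2 thus lay within the range of these other groups. Of the 6 markers, Ly6c2 and Adgre1 had no H3K27ac peak in DM. The part of such cells in the Csf1r and marker values was not tested. Gfi1b, an erythroid and platelet repressor, had no peak in DM and 7.89 kb in WT HSPC (adjusted p = 0.00133). Megakaryocyte markers and the erythroid markers given above were also lower in DM than in WT HSPC, and the part of such cells in the platelet and erythroid genes was not tested. Myl9 and Myh10, which encode myosin chains, had 0 and 0.173 kb in DM and 1.58 and 1.80 kb in WT HSPC (adjusted p = 0.0151 and 0.0106). Flt3-ITD had 0 called (0.0807% of all genes rose and 0.0220% fell; median 0.08 against 0.12). In neutrophils 2 rose and 7 fell (13.2% and 23.2% of all genes; median -0.27 against -0.12; 3 and 7 after centring). Cebpe, a granulocyte factor, had 3.52 kb in neutrophils and none in WT HSPC (adjusted p = 8.31e-05), and Gfi1b had none in neutrophils and 7.89 kb in WT HSPC (adjusted p = 0.000257). DM against Npm1c had 0 rises and 9 falls (30.9% of all genes fell; median -0.65 against -0.31; 2 and 7 after centring). For H3K4me1, with all 22 tested, DM had 1 rise and 7 falls (1.91% and 16.2% of all genes; median -0.22 against -0.21; 4 and 5 after centring). Neutrophils had 0 rises and 7 falls (18.6% of all genes fell; median -0.28 against -0.16; 1 and 9 after centring). For H3K4me3 each of the lists had at most 3 calls in a direction in any comparison between groups. The largest counts were 3 rises among 21 RUNX1 targets tested in DM against WT HSPC (4.84% of all genes). In neutrophils against WT HSPC, 3 of 5 bone-forming genes tested fell (10.6%). Some of these calls rest on replicates without spread, such as Csf1r in DM (2 and 1 kb on average in DM and WT HSPC, SE 0.0005). Of 10 bone-forming genes, 2 had enough H3K27ac to be tested, Sp7 and Col1a1. Sp7 rose in Npm1c (2.52 kb in Npm1c and 1.04 kb in WT HSPC, 0.97, adjusted p = 0.0386), a call lost after centring (0.57, adjusted p = 0.183), and was lower in DM than in Npm1c (0.746 and 2.52 kb, -1.30, adjusted p = 0.00790). Col1a1, a collagen gene, had 0.798 kb in neutrophils and no peak in WT HSPC (adjusted p = 0.000171, and 0.000289 after centring).

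Genes whose H3K27ac coverage followed a member most closely over the 10 libraries were taken from other chromosomes. For Runx1 these were Clic1 and Msh5, with Pearson r = 0.98 each, and Pde4b, which encodes a phosphodiesterase (r = 0.97). Clic1 and Msh5 had equal coverage in all but the Npm1c libraries. Pde4b held 7.37 and 4.34 kb in DM, 5.73 and 7.83 kb in Npm1c, 4.30 and 4.23 kb in Flt3-ITD, 4.23 and 4.32 kb in neutrophils and 2.71 and 2.73 kb in WT HSPC. For Runx2 they were Mrpl1 (r = 0.97), Preb (0.96) and Dcakd (0.95), for Runx3 Ip6k2 (0.97), Clk3 (0.96) and Golga7 (0.96), and for Cbfb Matk, Mrpl54 and Apba3, which share a window (0.99). The points share the libraries and their list sizes, so the coefficients describe likeness in these libraries only, over 7464 to 7701 genes ranked.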

How the data were processed

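Peak coordinates are the only values the authors deposited: for each of 30 libraries a BED list of 3 columns (chromosome, start, end) with no score or read count, so the unit is other than counts or signal. The submitters' processing notes name mm10, Bowtie2 2.1.0, Picard, HOMER and MACS2, with no thresholds. As tested on the files, H3K4me1 and H3K4me3 lists hold peaks of 1000 bp and H3K27ac lists peaks of 200 bp and more. Depth per library is unknown.

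Gene spans and promoters came from RefSeq tables of GRCm38.p6. Bp under peaks in the span plus 10 kb were put on the log2(bp + 500) scale. Genes with coverage in 2 or more of the 10 libraries entered limma 3.58.1 (R 4.3.3; lmFit, trended eBayes), fitted to the 5 groups without scaling or a replicate term. P-values were adjusted by Benjamini-Hochberg within a mark and comparison, and called below 0.05. The fit was also run on simulated data. Those values were continuous, so that run did not cover the 1 kb steps or the replicates without spread of H3K4me1 and H3K4me3. Regions merged the 10 lists of a mark, and 1 bp of overlap counted as present. Python 3.11.15, pandas 2.3.3, NumPy 2.4.6 and matplotlib 3.10.9 were used.

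The members, gene lists and tests were chosen with earlier results of these data known. The rule for named genes was the 5 members in every mark, up to 4 called genes per list and comparison by size of change, and the 3 genes most like each member among those with at least 2 kb in a library. Not every listed gene that was called is printed, and Erg in DM was added after its values were seen. Alternatives were another pseudocount, filter, scaling, window, replicate term, equal list lengths, a stricter overlap, each library left out, and a floor on the spread added later. Same-numbered replicates of different groups did not deviate together (r of -0.13 to 0.28 for H3K27ac, 1 of 10 pairs above 0.1), so numbers were not taken to pair samples.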

Additional observations from a re-analysis of the deposited data

Results flagged for a closer look

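The change of H3K4me3 over Runx1t1 with Flt3-ITD differed between Npm1c and WT backgrounds: the interaction was -1.22 on the log2 scale, with 1 and 1 kb in DM, 3 and 3 kb in Npm1c, 3 and 3 kb in Flt3-ITD and 3 and 3 kb in WT HSPC. It was singled out because the test of the difference between backgrounds passed (limma adjusted p = 2.92e-13). That p rests on replicates with equal numbers of 1 kb peaks, and it was 1.00 with a spread of at least 1 peak.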

How the results depend on the processing

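Changes below are log2, each with its limma adjusted p where it bears on a call. With each library centred on its median gene, Runx1 H3K27ac in Npm1c was 0.73 (limma adjusted p = 0.108), Cbfb H3K27ac in DM against Npm1c -0.003 (0.986) and Cbfb H3K4me1 in DM against Flt3-ITD -0.35 (0.254), all no longer called; Cbfb H3K27ac turned to -0.088 in Npm1c and -0.12 in Flt3-ITD against WT HSPC. With the gene span alone, Cbfb H3K27ac turned to 0.10 for DM against Npm1c, 0.22 in DM and 0.17 in neutrophils against WT HSPC, and Runx1 in Npm1c was 1.17 (0.063); the region that sets these Cbfb values lies outside the span. Runx1 in Npm1c was also not called with the widest peaks (0.98, 0.0556) or without a filter on low coverage (1.13, 0.871). With peaks drawn at random to give lists of equal length, 11 results kept their direction but lost their call, and 5 turned: Runx1 in Npm1c 0.69, Runx3 in neutrophils -1.60 and in Npm1c -0.17, Cbfb H3K27ac 1.19 for DM against Npm1c, -0.39 in Flt3-ITD and -1.43 in Npm1c, Cbfb H3K4me1 0.22 for DM against Flt3-ITD and -0.49 against Npm1c, Runx1t1 H3K4me1 in DM -1.95 against WT HSPC, -1.95 against Npm1c and -2.20 against Flt3-ITD, and Runx1t1 H3K4me3 -1.77 in DM against WT HSPC, -1.77 against Npm1c, -1.53 against Flt3-ITD, -1.53 for the interaction and -0.98 in neutrophils. Among those that turned, Cbfb H3K27ac in DM against Npm1c and Cbfb H3K4me1 in DM against Flt3-ITD also lost their call. Regions gained in neutrophils were 5 for H3K27ac, and regions lost were 3 in Flt3-ITD, 3 in Npm1c and, for H3K4me1, 10 in DM. Peaks covering at least 50% of a region gave 2 H3K27ac losses in Flt3-ITD. The cause of these shifts was not tested.

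The spread of at least 1 peak left all 5 Runx1t1 H3K4me3 results at -1.22 and uncalled (limma adjusted p = 0.108 to 1.00), by its construction. With the replicate block, Runx1 H3K27ac in Npm1c stayed at 1.13 but was not called (limma adjusted p = 0.0605), nor was Runx1t1 H3K4me1 in DM against Flt3-ITD at -2.38 (0.0531); no other call changed, and the numbers did not pair the samples. Leaving out each library gave 1.10 to 1.15 for Runx1 in Npm1c (adjusted p up to 0.190), -0.45 to -0.27 for Cbfb H3K27ac in DM against Npm1c, -0.049 to 0.09 for Cbfb H3K27ac in Flt3-ITD, -0.62 to -0.49 for Cbfb H3K4me1 in DM against Npm1c and the same range against Flt3-ITD, -3.31 to -1.73 for Runx1t1 H3K4me1 in DM against WT HSPC and -3.17 to -1.59 against either single mutant. For DM against WT HSPC it gave -0.040 to 0.96 for Runx2 and -0.023 to 0.66 for Runx3 H3K27ac, the lowest without DM replicate 1. A group left with 1 library was assumed to vary like the others. Cbfb H3K4me1 in DM (-1.92 to -0.67) and in neutrophils (-2.29 to -0.86) against WT HSPC and Runx1t1 H3K4me1 in neutrophils stayed called under every alternative run. Runx3 H3K27ac in neutrophils stayed called except with equal lists drawn at random (adjusted p = 0.0900). Becoming called under some alternatives were Runx1 in DM (0.50 to 1.27 over all of them), Runx1 and Runx2 in neutrophils, Runx2, Runx3 and Cbfb in Npm1c, and Runx3 in DM against Flt3-ITD (0.90 after centring), all for H3K27ac and all in the main direction. The number of members called was not tabulated apart from these values. Without read counts, depth could not be separated from any of them.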
